A study of Drosophila melanogaster with 6 samples.

Results

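In Drosophila S2 cells 73 genes were lower in both PARP1 knockdown (PARP1 KD) libraries than in every other library of the study, by a fixed margin. A gene was taken when its higher PARP1 KD value was at most 0.67 of the lowest value among the 4 libraries of the other groups and that lowest value was at least 3 FPKM (sequenced fragments scaled to transcript length and to all mapped fragments of a library). The table held 14012 genes, of which 4059 reached the 3 FPKM floor and could be chosen. Of these, 82 (2.02%) met the limit. Parp1, 5 Hsp70 genes and the small heat shock genes Hsp22, Hsp23 and Hsp26 were among them (heat shock genes at ratios of 0.275 to 0.523) and were set aside by the definition, which left the 73 genes described here. The members were chosen by these measured values in all 6 libraries, so their low level under PARP1 KD is a description and carries no test.

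S2 is a hemocyte-like line from late fly embryos. RNA was sequenced from 2 cultures given double-stranded RNA against PARP1 (amounts of 100 and 500, with units that differ between the descriptions), 2 cultures treated with PJ34 (10 and 0.3 µM), which inhibits PARylation, and 2 untreated control cultures. The study asked how RNA levels and splicing depend on the PARP1 protein and on its activity. Which PARP1 KD or PJ34 library had which dose was not given by the table, so libraries carry the numbers of the table, and dose and the spread of a group cannot be told apart. The controls were untreated, so loss of PARP1 and exposure to double-stranded RNA cannot be told apart either.

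PARP1 is a nuclear enzyme that binds chromatin and attaches chains of ADP-ribose to histones, to itself and to other proteins, a reaction called PARylation. In flies it has been linked to the opening of chromatin at induced genes and to the organization of heterochromatin. Heterochromatin is compact, repeat-rich chromatin that lies around the centromeres and along most of the small chromosome 4. It still holds active genes, and light and rolled near the centromere of chromosome 2 are known to depend on their heterochromatic surroundings.

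Parp1 itself, on scaffold 3RHet between 1768645 and 2027212 (build dm3, as all coordinates here), had 16.7 and 10.2 FPKM under PARP1 KD, 39.3 and 50.2 FPKM under PJ34 and 51.6 and 29.9 FPKM in controls. Both PARP1 KD libraries were below the other 4. Its span overlaps 10 other genes, so these values are uncertain. In the fit across all genes Parp1 was 1.51 lower on the log2 scale in PARP1 KD than in control (log2 difference -1.51, SE 0.55), and with limma its adjusted p was 0.9996. PJ34 library 2 stood apart from the others in overall level, with a median of 15.2 FPKM over the genes at the floor. The 8 hemocyte markers of S2 cells summed to 1101 to 1246 FPKM under PARP1 KD, 90.7 to 717 FPKM under PJ34 and 1112 to 1302 FPKM in controls, mostly from Col4a1 and vkg. Of the defining markers, Hml had 1.23 and 1.06 FPKM under PARP1 KD, 0.136 and 0.00685 FPKM under PJ34 and 1.26 and 1.55 FPKM in controls, and Sr-CI had 1.58 and 1.71 FPKM under PARP1 KD, 33.9 and 15.01 FPKM under PJ34 and 0.937 and 2.498 FPKM in controls. In control libraries 1 and 2, Pxn had 4.09 and 101.9 FPKM, eater 4.74 and 25.8 FPKM and NimC1 0.0583 and 2.24 FPKM. The other hemocyte markers differed by smaller factors between the controls. The marker levels therefore differed between libraries, also between the controls, and their part in the results was not tested. Muscle, fat body, germ line and midgut markers found in the table were all below 1 FPKM, as were Syt1 and nSyb of the neuron list. The neuron gene brp had 4.63 and 5.95 FPKM under PARP1 KD, 0.407 and 0.0811 FPKM under PJ34 and 4.399 and 5.23 FPKM in controls, and elav had 0.326 and 0.4702 FPKM under PARP1 KD, 3.37 and 1.07 FPKM under PJ34 and 3.79 and 0.897 FPKM in controls. No marker of any list was among the 73 genes. Taking the lowest common values as 1 fragment, the spacing of low values gave relative depths of 0.882 to 1.11 of control library 1, and a transcript of 1500 bases at the 3 FPKM floor had about 110 fragments behind it.

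The 73 genes had a median of 14.5 and 9.13 FPKM in the PARP1 KD libraries, 44.7 and 43.0 FPKM in the PJ34 libraries and 34.9 and 29.6 FPKM in the controls. All 4059 genes at the floor had medians of 35.6 and 28.2 FPKM under PARP1 KD, 30.4 and 15.2 FPKM under PJ34 and 40.5 and 35.8 FPKM in controls. The ratio of the higher PARP1 KD value to the lowest other value ran from 0.264 to 0.669 with a median of 0.551. Against the mean of the controls the PARP1 KD mean was 35.7% to 91.3% lower, with a median of 60.8%, and 61 of the 73 genes were at or under 0.5 of the control level. In bulk RNA, fewer cells that express a gene and less RNA per cell cannot be told apart. PARP1 KD library 2 was below library 1 in 72 of 73 genes, CG31347 being the exception, and in 94.1% of the genes at the floor. The lowest of the other 4 libraries was control library 1 for 38 genes, control library 2 for 19, PJ34 library 2 for 12 and PJ34 library 1 for 4.

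**Figure D1:**
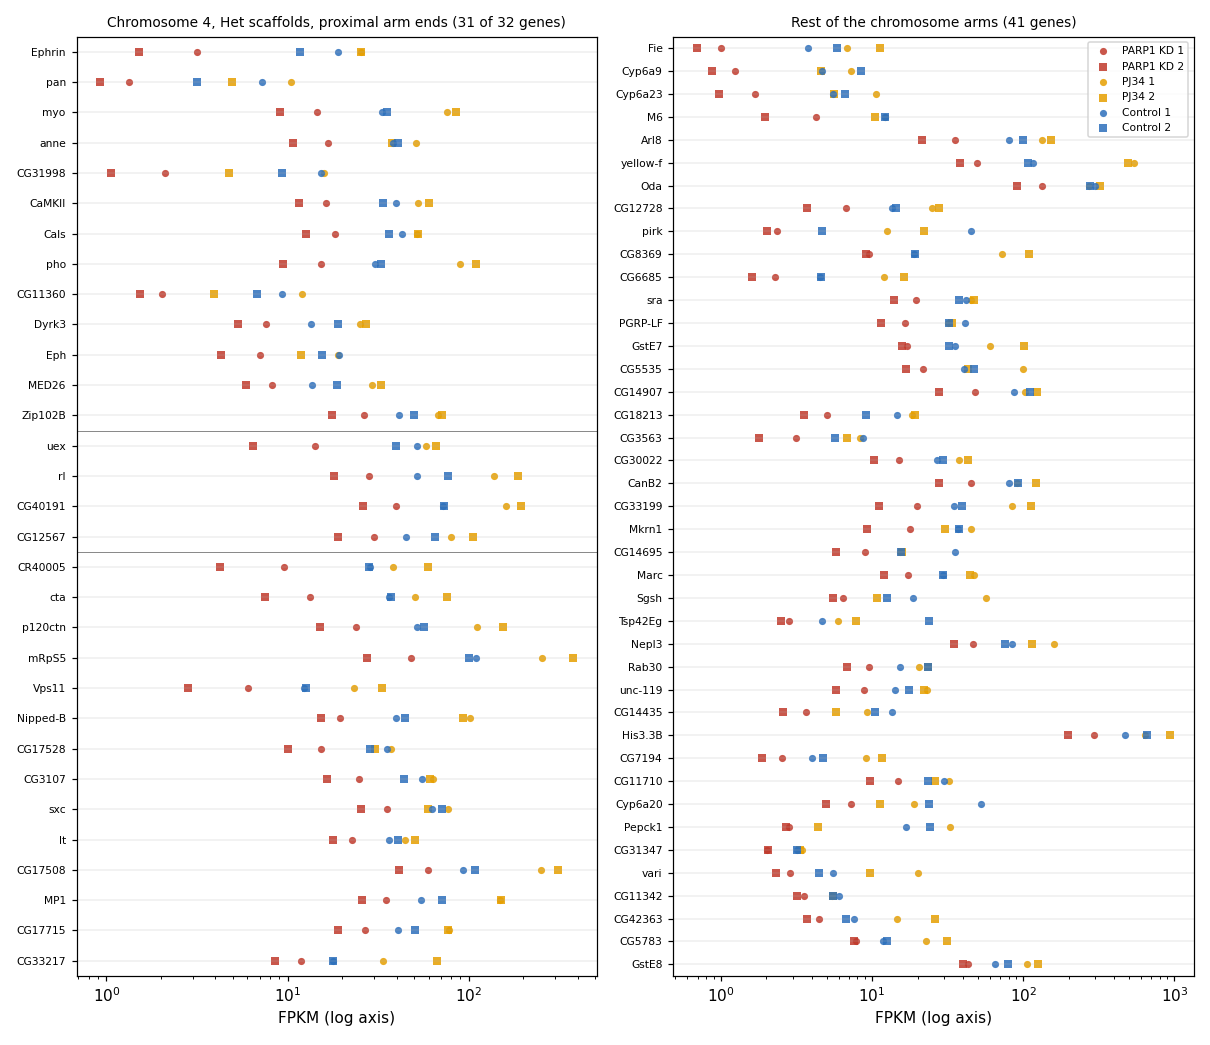
FPKM (log axis) of 72 of the 73 genes in each of the 6 libraries, with PARP1 KD in red, PJ34 in orange and control in blue, a circle for library 1 and a square for library 2 of a group. The left panel holds 31 of the 32 genes of the fourth chromosome, the Het scaffolds and the proximal arm ends, separated by grey lines, the right panel the 41 genes of the rest of the arms, each ordered by the ratio of the rule (CR40005 is CG40005). Both red points lie left of the others by construction, while the orange and blue points change order from gene to gene.

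At the limit, CG5783 and GstE8 (ratio 0.666 each) and CG33217 (0.669) were the last genes inside, and nom (0.671), homer (0.673) and CG1902 (0.676) the first outside. At the floor, pan (lowest other value 3.16 FPKM), CG31347 (3.17 FPKM) and Fie (3.77 FPKM) were just inside, and IM33, CG14615 and chinmo (2.72, 2.72 and 2.71 FPKM) just outside. Membership also depended on single libraries. Without PARP1 KD library 1 the same rule took 297 genes, without PJ34 library 2 it took 277 and without control library 1 it took 232. Leaving out a library can only loosen the rule, so each of these sets had to contain the 73. When every library was scaled to a common median, 118 genes met the rule and 31 of the 73 were among them.

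Where the genes lie was not used to choose them. Of the 43 chromosome 4 genes at the floor, 14 (32.6%) were members. The scaffolds of unplaced heterochromatin in dm3 (Het and U) gave 4 of 34 genes (11.8%). The proximal ends of the arms, taken as the 2 Mb nearest the centromere, gave 14 of 227 (6.17%). Distance was counted from the end of the last gene on 2L, 3L and X and from the first base on 2R and 3R. The rest of the arms gave 41 of 3742 (1.10%). The first 3 classes held 7.49% of the genes at the floor and 32 of the 73 members (43.8%). The 3 classes made up 22.2% of the set chosen without PARP1 KD library 1, 19.5% of that without PJ34 library 2 and 24.6% of that at a common median. With a window of 1 Mb in place of 2 Mb the number was 28, and with 3 Mb it was 35. These windows were chosen after the positions had been seen, and no test is given. The rule also needed PJ34 values well above PARP1 KD, and PJ34 levels differed by class. Among genes at the floor that were not members, the median log2 difference of PJ34 from control was 0.91 on the Het and U scaffolds. It was -0.60 on the fourth chromosome, -0.80 at the proximal ends and -0.78 in the rest of the arms. The members, left out of these medians, had a median of 0.60 on the fourth chromosome. Theirs was 0.92 on the scaffolds and proximal ends together and 0.47 in the rest of the arms. The part of PJ34 levels in the shares of members was not tested.

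**Figure D2:**
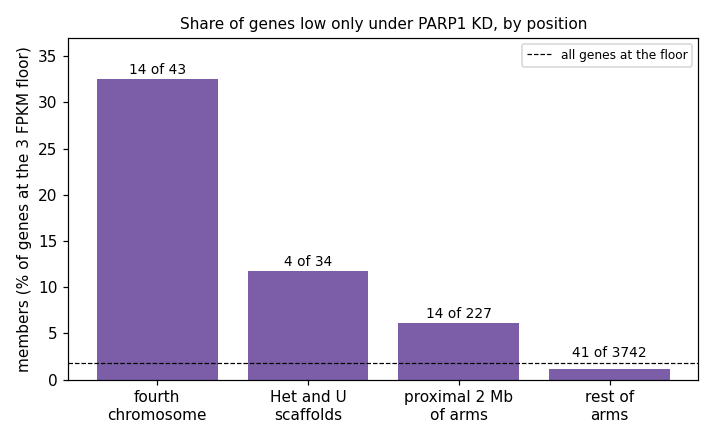
Members as a percentage of the genes at the 3 FPKM floor in each position class, with the counts above the bars and the share over all genes at the floor (1.80%) as a dashed line. The fourth chromosome stands at 32.6% and the rest of the arms at 1.10%.

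The share of members was also taken by distance from the centromere-proximal end of the arm, counted in the same way. Within 1 Mb of it, 10 of 85 genes at the floor were members (11.8%), from 1 to 2 Mb 4 of 142 (2.82%), from 2 to 3 Mb 3 of 145 (2.07%) and from 3 to 5 Mb 1.79% (7 members). Farther out the shares were 7 of 840 from 5 to 10 Mb (0.833%), 22 of 1726 from 10 to 20 Mb (1.27%) and 2 of 639 from 20 to 30 Mb (0.313%). By arm, the members within 1 Mb were 4 of 19 genes at the floor on 2L, 4 of 15 on 2R, 1 of 4 on 3L, 1 of 34 on 3R and 0 of 13 on X. Most of these genes lay at the inner ends of both arms of chromosome 2.

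The genes that were not chosen were counted by class as well. Both PARP1 KD libraries were below all 4 others in 10 of the 29 remaining chromosome 4 genes (34.5%). The same held in 279 of 3693 remaining genes of the rest of the arms (7.55%). Over all classes it held in 321 of 3977 remaining genes at the floor (8.07%). The PARP1 KD mean was below the control mean in 27 of those 29 genes, with a median log2 difference of -0.74, and in 67.1% of the 3693, with a median of -0.21. Het and U genes that were not members had a median log2 difference of -0.26 and those of the proximal ends -0.34. These counts use the libraries that the rule used and are given as a description.

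**Figure D3:**
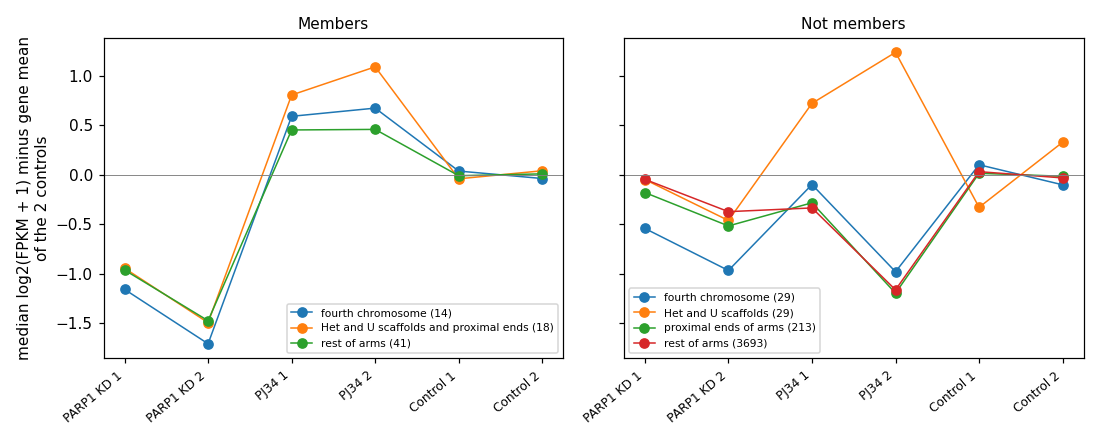
Median over genes of log2(FPKM + 1) minus the gene's mean in the controls, in each of the 6 libraries (PARP1 KD, PJ34, control from left to right), for members (left panel) and for other genes at the floor (right panel) of each position class, with the number of genes in the legend. Among the genes that were not members, those of the fourth chromosome had medians of -0.54 and -0.97 in the PARP1 KD libraries and those of the rest of the arms -0.05 and -0.37.

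The members had a median transcript length of 1970 bases, against 1458 bases for all genes at the floor, and 48.6% of them were over 2000 bases, against 28.4%. Among genes over 2000 bases, 25 of 129 (19.4%) were members on the fourth chromosome, the scaffolds and the proximal ends, and 10 of 1004 (0.996%) elsewhere. Among genes of at most 2000 bases the counts were 7 of 168 (4.17%) and 30 of 2691 (1.11%). The part of length in the low values was not tested. Of the members 17 (23.3%) overlap the span of another gene, against 36.1% of the genes at the floor, and the values of overlapping genes are uncertain because the table gives no strand.

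The 14 members on the fourth chromosome included Ephrin, pan, myo, anne, CG31998, CaMKII, Cals, pho, CG11360, Dyrk3, Eph, MED26 and Zip102B. Ephrin, which encodes a membrane-bound ligand, had the lowest ratio of them (0.268), with 3.16 and 1.51 FPKM under PARP1 KD, 25.5 and 25.3 FPKM under PJ34 and 18.9 and 11.8 FPKM in controls. Its receptor gene Eph, the only Eph receptor of the fly, had 7.03 and 4.29 FPKM in the PARP1 KD libraries, against 18.9 and 11.9 FPKM under PJ34 and 19.3 and 15.5 FPKM in the controls. Ligand and receptor were thus both low under PARP1 KD, Ephrin by 84.8% and Eph by 67.4% of the control mean.

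Other signalling genes of this chromosome were pan, which encodes the TCF factor of the Wingless pathway, and myo, which encodes myoglianin, a ligand of the TGF-beta family. For pan the values were 1.33 and 0.924 FPKM under PARP1 KD, 10.5 and 4.94 FPKM under PJ34 and 7.27 and 3.16 FPKM in controls. For myo they were 14.5 and 9.13 FPKM under PARP1 KD, 75.4 and 85.5 FPKM under PJ34 and 33.4 and 35.4 FPKM in controls. In pan the libraries of PJ34 and control overlapped, and in myo both PJ34 libraries were above both controls. CaMKII, a calcium-dependent protein kinase, had 16.2 and 11.5 FPKM in the PARP1 KD libraries, against 52.2 and 60.04 FPKM under PJ34 and 39.9 and 33.6 FPKM in the controls. Dyrk3, a kinase of the DYRK family, had 7.598 and 5.34 FPKM in the PARP1 KD libraries, against 24.99 and 26.97 FPKM under PJ34 and 13.5 and 18.9 FPKM in the controls. Both kinase genes were highest in the PJ34 libraries.

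The DNA-binding Polycomb protein gene pho had 15.3 and 9.49 FPKM under PARP1 KD, 89.6 and 109 FPKM under PJ34 and 30.3 and 32.7 FPKM in controls. MED26, a subunit of the Mediator complex, had 8.21 and 5.88 FPKM under PARP1 KD, 29.4 and 32.7 FPKM under PJ34 and 13.6 and 18.8 FPKM in controls. Both genes act in transcription and both were highest under PJ34. The zinc transporter gene Zip102B had 26.3 and 17.7 FPKM in the PARP1 KD libraries, against 67.5 and 71.3 FPKM under PJ34 and 40.95 and 49.7 FPKM in the controls. Cals, which encodes the cadherin-family protein calsyntenin, had 18.2 and 12.6 FPKM in the PARP1 KD libraries, against 51.7 and 52.3 FPKM under PJ34 and 42.7 and 36.2 FPKM in the controls. In both of these, too, both PJ34 libraries lay above both controls. The gene anne had 16.7 and 10.7 FPKM under PARP1 KD, 51.2 and 37.8 FPKM under PJ34 and 38.1 and 40.8 FPKM in controls, with overlap of PJ34 and control, and CG31998 and CG11360 had ratios of 0.447 and 0.516.

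**Figure D4:**
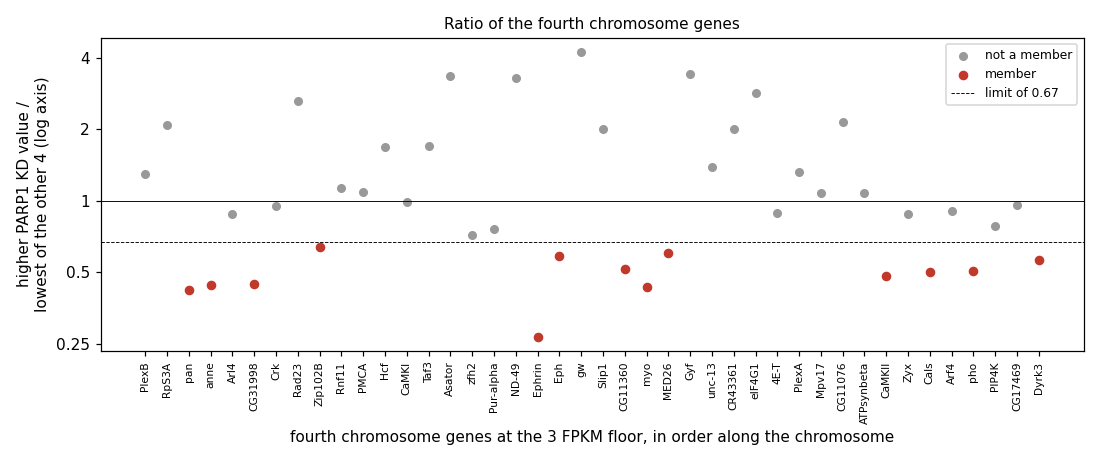
Ratio of the higher PARP1 KD value to the lowest value of the other 4 libraries (log axis) for 42 of the 43 chromosome 4 genes at the floor, in order along the chromosome, with members in red and the limit of 0.67 dashed. The 13 members shown lie at several places along the chromosome, and 10 further genes lie between the limit and 1.

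The 4 members on heterochromatic scaffolds were uex, rl and CG40191 on 2RHet and CG12567 on 2LHet. The gene uex encodes a protein of the CNNM family linked to magnesium transport and had 14.1 and 6.45 FPKM under PARP1 KD, 57.9 and 66.2 FPKM under PJ34 and 51.9 and 39.8 FPKM in controls. The ERK kinase gene rl (rolled), between 198175 and 247809 of 2RHet, had 28.2 and 18.1 FPKM under PARP1 KD, 137 and 187 FPKM under PJ34 and 51.7 and 77.2 FPKM in controls. CG40191 had 39.5 and 26.2 FPKM in the PARP1 KD libraries, against 161 and 194 FPKM under PJ34 and 72.1 and 73.2 FPKM in the controls. CG12567 had 29.95 and 18.9 FPKM in the PARP1 KD libraries, against 79.7 and 106 FPKM under PJ34 and 45.2 and 65.1 FPKM in the controls. All PJ34 values of these 4 genes were above both controls.

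At the proximal ends of the arms CG40005, which the RefSeq annotation lists as a pseudogene (CR40005), had the lowest ratio (0.342), with 9.59 and 4.23 FPKM under PARP1 KD, 38.4 and 59.6 FPKM under PJ34 and 28.4 and 28.04 FPKM in controls. Its neighbour lt (light), 8532 bases away on 2L, encodes Vps41, and had 22.8 and 17.8 FPKM under PARP1 KD, 44.7 and 50.2 FPKM under PJ34 and 36.5 and 40.4 FPKM in controls. The G-protein alpha subunit gene cta (concertina), also on 2L, had 13.4 and 7.48 FPKM under PARP1 KD, 50.4 and 76.2 FPKM under PJ34 and 36.2 and 37.4 FPKM in controls. PJ34 was above both controls in all of these, and lt had the highest ratio of them, 0.623.

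On 2R the cadherin-binding catenin gene p120ctn had 23.9 and 15.2 FPKM in the PARP1 KD libraries, against 111 and 155 FPKM under PJ34 and 52.1 and 56.7 FPKM in the controls. Nipped-B, which encodes the cohesin loader, had 19.5 and 15.2 FPKM in the PARP1 KD libraries, against 102 and 93.1 FPKM under PJ34 and 39.5 and 44.7 FPKM in the controls. The O-GlcNAc transferase gene sxc, a Polycomb group gene, had 35.4 and 25.6 FPKM in the PARP1 KD libraries, against 77.1 and 59.6 FPKM under PJ34 and 62.3 and 71.3 FPKM in the controls. In sxc the PJ34 and control libraries overlapped, and in p120ctn and Nipped-B they did not. CG17508 had 59.7 and 41.4 FPKM under PARP1 KD, 250.0 and 312 FPKM under PJ34 and 92.8 and 108 FPKM in controls. mRpS5 on 3L, a protein of the small mitochondrial ribosomal subunit, had 48.1 and 27.4 FPKM under PARP1 KD, 254 and 377 FPKM under PJ34 and 109.6 and 100.1 FPKM in controls. These were among the 6 members with the highest control means. MP1 on 3R, a protease of the melanization cascade, had 34.997 and 25.6 FPKM in the PARP1 KD libraries, against 148 and 151 FPKM under PJ34 and 54.3 and 71.03 FPKM in the controls. Vps11 on 3L had 6.06 and 2.83 FPKM in the PARP1 KD libraries, against 23.2 and 33.03 FPKM under PJ34 and 12.3 and 12.6 FPKM in the controls. In these, too, both PJ34 libraries were above both controls. CG17528, CG3107, CG17715 and CG33217 had ratios of 0.536 to 0.669.

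The rest of the arms held 41 members, 30 of them with 1 annotated transcript. Fie, on 3L, had the lowest ratio of all members (0.264), with 0.996 and 0.693 FPKM under PARP1 KD, 6.86 and 11.4 FPKM under PJ34 and 3.77 and 5.901 FPKM in controls. M6, a member of the proteolipid protein family, had 4.23 and 1.95 FPKM in the PARP1 KD libraries, against 12.1 and 10.4 FPKM under PJ34 and 12.3 and 12.2 FPKM in the controls. The lysosomal small GTPase gene Arl8 had 35.5 and 21.5 FPKM in the PARP1 KD libraries, against 132 and 153 FPKM under PJ34 and 80.1 and 99.1 FPKM in the controls. The PJ34 libraries were above both controls in Arl8 and in Fie and below them in M6.

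Of the 6 members with the highest control means, His3.3B, Oda, yellow-f and CG14907 lay here. His3.3B, which encodes the replacement histone H3.3, had 295 and 199 FPKM under PARP1 KD, 635 and 934 FPKM under PJ34 and 469 and 657 FPKM in controls. His3.3A, the other gene for that protein, was no member and had 348 and 348 FPKM under PARP1 KD, 257 and 172 FPKM under PJ34 and 252 and 248 FPKM in controls. Both PARP1 KD values of His3.3A were above its other values, while those of His3.3B were below its other values. Oda, which encodes the antizyme that limits ornithine decarboxylase, had 133 and 91.6 FPKM in the PARP1 KD libraries, against 272 and 321 FPKM under PJ34 and 299 and 276 FPKM in the controls. CG14907 had 47.7 and 27.9 FPKM in the PARP1 KD libraries, against 103 and 124 FPKM under PJ34 and 86.99 and 111 FPKM in the controls. For both genes PJ34 and control overlapped.

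The cytochrome P450 genes, whose products oxidize toxins and other small molecules, had 3 members among 13 of the family at the floor, with 4 below all others in both PARP1 KD libraries. Over all genes at the floor, members made up 1.80% and genes below all others 9.93%, and with so few genes nothing particular to the family is read from the counts. Cyp6a23, Cyp6a9 and Cyp6a20 are neighbours on 2R, 1701 and 747 bases apart. Cyp6a9 had 1.24 and 0.876 FPKM under PARP1 KD, 7.25 and 4.59 FPKM under PJ34 and 4.68 and 8.39 FPKM in controls. Cyp6a23 had 1.69 and 0.963 FPKM under PARP1 KD, 10.6 and 5.58 FPKM under PJ34 and 5.51 and 6.63 FPKM in controls. Cyp6a20 had 7.25 and 4.92 FPKM under PARP1 KD, 18.96 and 11.4 FPKM under PJ34 and 52.4 and 23.95 FPKM in controls. PJ34 and control overlapped in Cyp6a9 and Cyp6a23, and in Cyp6a20 both PJ34 libraries were below both controls. Cyp6a17 beside them had 15.3 and 10.8 FPKM in the PARP1 KD libraries, against 26.3 and 7.58 FPKM under PJ34 and 42.2 and 44.1 FPKM in the controls, and Cyp6a8 had 4.72 and 2.79 FPKM in the PARP1 KD libraries, against 3.75 and 5.74 FPKM under PJ34 and 12.4 and 19.5 FPKM in the controls. Those neighbours were below both controls under PARP1 KD, but PJ34 library 2 for Cyp6a17 and PJ34 library 1 for Cyp6a8 were below the higher PARP1 KD library, so they were not members. How far related copies in this cluster share reads was not examined, so their values are uncertain.

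Glutathione S-transferases, which conjugate glutathione to small molecules, had 2 members of 22 at the floor, with 7 below all others (1.80% and 9.93% over all genes at the floor). The members, GstE7 and GstE8, are 167 bases apart on 2R. GstE7 had 17.1 and 15.7 FPKM in the PARP1 KD libraries, against 60.7 and 102 FPKM under PJ34 and 35.4 and 32.4 FPKM in the controls. GstE8 had 43.1 and 39.7 FPKM in the PARP1 KD libraries, against 107 and 126 FPKM under PJ34 and 64.7 and 78.8 FPKM in the controls. Next to them GstE9 had 57.7 and 57.6 FPKM under PARP1 KD, 76.8 and 93.4 FPKM under PJ34 and 108 and 123 FPKM in controls, a ratio of 0.751, and GstE6 on the other side had a ratio of 0.811. Both flanking genes were below all others under PARP1 KD without meeting the limit.

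Of the peptidoglycan recognition proteins, receptors and scavengers of bacterial cell wall, 1 of 5 genes at the floor was a member. It was also the only 1 below all others in both PARP1 KD libraries. Over all genes at the floor the shares were 1.80% and 9.93%. PGRP-LF, an inhibitor of the Imd pathway, had 16.5 and 11.5 FPKM under PARP1 KD, 31.6 and 33.7 FPKM under PJ34 and 41.04 and 32.1 FPKM in controls. The other Imd inhibitor among the members, pirk, had 2.34 and 2.02 FPKM in the PARP1 KD libraries, against 12.6 and 21.997 FPKM under PJ34 and 45.1 and 4.67 FPKM in the controls. Control library 1 was far above control library 2 for pirk. The further Imd inhibitor casp had 24.2 and 18.1 FPKM in the PARP1 KD libraries, against 15.8 and 3.304 FPKM under PJ34 and 34.9 and 21.8 FPKM in the controls, and was no member. PGRP-LB, also an Imd inhibitor, was under the floor. Its values were 0.756 and 1.13 FPKM under PARP1 KD, 0.777 and 0.219 FPKM under PJ34 and 40.1 and 0.624 FPKM in controls. None of the 3 double-stranded RNA silencing genes at the floor was a member, and 1 of them, loqs, was below all others at a ratio of 0.926.

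Groups of genes with a shared role that stand out here were put together after their values were seen, so their counts are no result about the groups, and members made up 1.80% of all genes at the floor. Vps11 and lt encode subunits of the HOPS complex, which tethers membranes to lysosomes, and were 2 of 3 such genes at the floor, Vps16A being the other. The HOPS genes dor, car and Vps39 missed the floor in PJ34 library 2 alone. Vps16A had 13.4 and 8.92 FPKM under PARP1 KD, 11.6 and 3.18 FPKM under PJ34 and 22.996 and 16.5 FPKM in controls, so its PARP1 KD values lay inside the range of the others. CanB2 and sra, the regulatory subunit and the regulator of calcineurin, were the only calcineurin genes at the floor. The calcineurin genes Pp2B-14D and CanA-14F missed it in PJ34 library 2 alone, at 1.03 and 0.414 FPKM. CanB2 had 44.96 and 27.7 FPKM in the PARP1 KD libraries, against 90.8 and 122 FPKM under PJ34 and 80.6 and 91.9 FPKM in the controls. For sra the values were 19.4 and 13.98 FPKM under PARP1 KD, 45.3 and 47.4 FPKM under PJ34 and 41.8 and 37.4 FPKM in controls. In the Polycomb group 2 of 4 genes at the floor, pho and sxc, were members, and E(z) and Sce were not. The list held 14 Polycomb group genes found, so most of them were under the floor. Of these, Asx, Pc, Scm, Sfmbt, Su(z)12, esc, ph-d and phol missed it in PJ34 library 2 alone. Psc and ph-p missed it in control library 2 as well.

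Neighbouring members formed 10 pairs with a gap of at most 25 kb, which held 19 of the 73 genes. Besides the pairs above they included pirk with CG42363, M6 with Mkrn1, CG33217 with Vps11, pan with anne and CG11360 with myo. The gaps ran from 167 bases between GstE7 and GstE8 to 23419 bases between pan and anne. The share of all genes at the floor in such pairs was not worked out, so nothing is read from these counts.

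The sums per gene were compared with their transcripts, which the deposited table gives as separate estimates. The members had 168 transcripts, and 113 of them had at least 1 FPKM in each of the 4 libraries outside PARP1 KD. Of these 105 were below all 4 in both PARP1 KD libraries and 93 met the limit of the rule. Of 27 members with at least 2 such transcripts, 19 had all of them below. The 8 that were not below included 1 transcript each of CG14907, CG40191, Dyrk3, MP1, Oda, myo and sxc. One of these, of myo, had 13.1 and 8.298 FPKM under PARP1 KD, 15.7 and 17.4 FPKM under PJ34 and 9.39 and 20.4 FPKM in controls. The transcripts of the 36 members with 1 annotated transcript met the limit by the rule itself. The 1 FPKM floor also left out transcripts that were low outside PARP1 KD. An example is a transcript of Mkrn1 that was higher in both PARP1 KD libraries than in all others. The transcript counts are therefore a description and no separate support for the gene sums.

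Set against control and against PJ34, the members' differences are a description. The median log2 difference of PARP1 KD from control was -1.27 over the members and -0.28 over the 7308 genes compared, and from PJ34 it was -1.84 and 0.67. In limma with Benjamini-Hochberg adjustment over all genes compared, 0 genes (0%) were lower in PARP1 KD than in control at an adjusted p under 0.05. At an unadjusted p under 0.05, 183 genes (2.5%) were lower and 26 (0.356%) higher, and 44 of the 73 members were among the lower ones. Fitted on only the 4 libraries of the comparison, 5 members passed the adjusted threshold, of 23 genes (0.315% of the genes compared). PARP1 KD was lower than PJ34 in 117 genes (1.6%), 19 of them members. The rule used these contrasts, and nothing is read from the counts.

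PJ34 against control was not the contrast of the rule, although the rule did require both PJ34 libraries to exceed PARP1 KD and so removed genes that were low under PJ34. Both PJ34 libraries were above both controls in 45 of the 73 members, against 18.7% of the genes at the floor. They were below both controls in 3, against 51.5%, and overlapped with the controls in 25. The median log2 difference was 0.61 over members, of which 60 were higher and 13 lower, and -1.08 over all genes compared. Centred on the median of each library, the members' median was 1.75. In the fourth chromosome, scaffold and proximal classes 25 of 32 members had both PJ34 libraries above the controls, and the median fold of PJ34 over control for the 32 was 1.69. In the rest of the arms 20 of 41 did, and the median fold for the 41 was 1.39.

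PJ34 and control libraries also entered the rule, so the limma values of PJ34 against control are given for members as a description, not as a test independent of the choice. One member, yellow-f, was past the threshold. The gene yellow-f, a dopachrome conversion enzyme of melanization, had 49.2 and 38.4 FPKM under PARP1 KD, 545 and 492 FPKM under PJ34 and 116 and 108 FPKM in controls. Its log2 difference of PJ34 from control was 2.20 (SE 0.40, adjusted p = 0.0431, limma), and both PJ34 libraries were above both controls. Over all genes compared 36 (0.493%) were higher and 11 (0.151%) lower, with 0 members among the lower ones. At an unadjusted p under 0.05, 15 members were higher, of 427 genes (5.84%). The next smallest adjusted p among members was 0.0968, for CG8369, at a log2 difference of 2.16 (SE 0.52) and with 9.499 and 9.08 FPKM in the PARP1 KD libraries, against 72.6 and 109 FPKM under PJ34 and 18.8 and 19.3 FPKM in the controls. The value of yellow-f was no longer past the threshold without any one of PARP1 KD library 1, PARP1 KD library 2 or control library 1, at adjusted p of 0.136, 0.119 and 0.102 in limma. Without PJ34 library 1, 21 members passed, 19 higher and 2 lower, but so did 5089 genes in all (69.9%), a larger share than that of the members. With 2 libraries against 2, an exact permutation test could not go below p = 0.333.

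**Figure D5:**
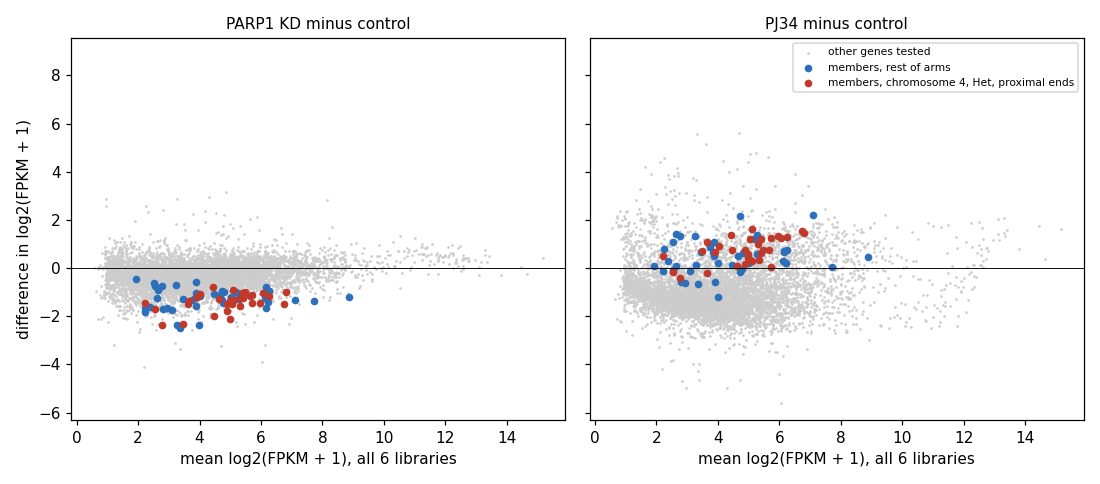
Difference in log2(FPKM + 1) of PARP1 KD minus control (left panel) and PJ34 minus control (right panel) against the mean over all 6 libraries, for the 7308 genes compared, with members of the fourth chromosome, the Het scaffolds and the proximal ends in red and the other members in blue. The panels share the control libraries. Members lie below 0 on the left by construction, and 60 of 73 lie above 0 on the right, while the median of all genes there is -1.08.

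The remaining members of the rest of the arms span many roles. Among those with a known role were the lysosomal sulfohydrolase gene Sgsh (ratio 0.597), the gluconeogenic enzyme gene Pepck1 (0.648), the septate junction scaffold gene vari (0.649), the small GTPase gene Rab30 (0.617), the makorin gene Mkrn1 (0.583), the tetraspanin gene Tsp42Eg (0.607) and the neprilysin-like gene Nepl3 (0.615). Pepck1 had 2.84 and 2.69 FPKM under PARP1 KD, 32.7 and 4.38 FPKM under PJ34 and 16.7 and 24.01 FPKM in controls, and Tsp42Eg had 2.83 and 2.496 FPKM in the PARP1 KD libraries, against 5.95 and 7.81 FPKM under PJ34 and 4.66 and 23.7 FPKM in the controls. In both the 2 libraries of a group differed by several times, PJ34 in Pepck1 and control in Tsp42Eg, while PARP1 KD stayed low in both libraries. Of the 73 members, 26 are known here by a CG number alone.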

How the data were processed

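RNA of 6 S2 cultures (3 groups of 2) was sequenced. The authors aligned reads to dm3 with TopHat2 2.0.10 and Bowtie2 2.1.0.0 and deposited FPKM per transcript, estimated with Cufflinks 2.1.1 and Cuffdiff and scaled by length and mapped fragments. Here FPKM were summed per CG number. Symbols came from RefSeq (13537 of 14012 matched), transcript lengths from Ensembl BDGP6 (median per gene). The members and lists were chosen with earlier results of these data known. The 7308 genes averaging 1 FPKM or more were compared as log2(FPKM + 1), which understates changes of low genes, in limma 3.58.1 (R 4.3.3) with all libraries, group means, an intensity trend and Benjamini-Hochberg adjustment (threshold 0.05), tested on simulated data. FPKM are not counts, so no count test was made. Named genes were the 12 lowest ratios, the 6 highest control means, members called under PJ34, members on a list, Parp1 and the genes at the limits. Others were named by role after their values were seen. Cyp1 and Cyp40, which are cyclophilins, were left out of the P450 list. The study describes the libraries of a group as biological replicates, although those of PARP1 KD and PJ34 had different doses, so the spread within a group can include dose. No sequences were used. Alternatives were other limits, floors, scalings, pseudocounts, filters, fits and leaving out each library. One member of chromosome 4 is not reported here by name.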

Additional observations from a re-analysis of the deposited data

How the results depend on the processing

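Of the number of members, 73, the alternatives gave 22 at a ratio limit of 0.5, 114 at 0.75, 186 from transcript rows (70 shared), 118 at a common median (31 shared), 132 after quantile normalization (43 shared) and 75 to 297 on leaving out 1 library. Genes of the fourth chromosome were 7.41% to 31.8% of these sets, against 1.06% of the genes at the floor of the main rule. Their share among the genes that each alternative could choose was not worked out. The members' median for PARP1 KD against control, -1.27, was -0.997 after quantile normalization, -0.87 after centring and -1.56 to -0.99 without 1 library. Against PJ34, -1.84, it was -1.45 with a pseudocount of 5, -2.30 after quantile normalization and -2.59 after centring. For PJ34 against control, 0.61, it was 1.19 after quantile normalization and 1.75 after centring. Members past the limma threshold there, 1, were 0 with a pseudocount of 0.1, without a filter, with only the 4 libraries or without the trend, 4 after quantile normalization (2.24% of all genes) and 0 to 21 without 1 library (69.9% of all genes for the 21, without PJ34 library 1). For yellow-f the adjusted p in limma was 0.0570 after centring and 0.0652 to 0.136 under the other settings that lost the call. The labels pair no libraries. With the column numbers as a replicate block, added after seeing the data, the medians were unchanged at -1.27, -1.84 and 0.61. In that fit 12 members passed for PJ34 against control (3158 genes, 43.2%). For PARP1 KD 6 passed against control (67 genes, 0.917%) and 58 against PJ34 (1730 genes, 23.7%). The differences of library 2 from library 1 correlated across genes, which are not independent, at 0.539 between PJ34 and control, 0.0824 between PARP1 KD and control and 0.0883 between PARP1 KD and PJ34, and with 2 libraries a group the numbers were not taken to pair them. The proximal windows of 1 and 3 Mb were chosen after seeing the data. The cause of these changes was not tested.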
